A study of Nothobranchius furzeri with 18 samples.

Results

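Fibroblasts from the tails of killifish homozygous for a mutation in exon 3 of vgll3 were compared with fibroblasts of wild-type fish (WT) across all genes. The libraries were chosen by their genotype label alone, 6 labelled vgll3 Exon3 and 6 labelled WT, which makes 12 of the 18 libraries of the series. The African turquoise killifish, Nothobranchius furzeri, is a fish of brief lifespan in which growth, maturation and ageing are studied. The exon 3 mutant libraries belong to 3 cultures (1, 3 and 4), each with a library A and a library B, and their library names call the allele null. The WT libraries belong to 4 cultures: F1 and F9 have a single library each, and F4 and FM have a library A and a library B. Another 6 libraries, from 3 cultures with a mutation in exon 1 of the same gene, were used to share the estimate of the spread and for a direct test between the mutants. All cultures were primary cells, harvested near confluence without a treatment. Their labels give no age, sex or strain, and do not say what the exon 3 mutation removes or whether each culture came from a fish of its own. The spread behind the p-values is therefore that between cultures as labelled, and part or all of it may be technical.

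Vgll3 is a vestigial-like cofactor. It has no DNA-binding domain of its own and acts by binding TEAD transcription factors, the same factors that the Hippo pathway effectors Yap and Taz bind when they are in the nucleus. Fibroblasts make the collagens, proteoglycans and proteases of connective tissue, and many genes of matrix, adhesion and growth signalling are known as targets of Yap and TEAD in cultured cells.

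The targeted gene checked the labels. Vgll3 was measured at 119, 103 and 99.9 CPM (counts scaled to a common library total) in exon 3 cultures 1, 3 and 4, and at 316, 262, 333 and 312 CPM in WT cultures F1, F9, F4 and FM. Every exon 3 culture lay below every WT culture, with no overlap. The single WT libraries ranged from 229 CPM in FMB to 379 CPM in FMA, also above every exon 3 library. The mean was 107 ± 10.3 CPM (SD, n = 3) against 306 ± 30.4 CPM (SD, n = 4), and the fitted log2 fold change was -1.51 (SE 0.14, edgeR quasi-likelihood adjusted p = 0.0029). The transcript was thus 2.85-fold lower and still among the measured genes in all 3 mutant cultures. This difference passed under all 17 alternative settings, with log2 fold changes between -1.59 and -1.46. Where along the transcript the reads fell is not given in the sources used here, so the count does not show whether exon 3 itself was read.

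The exon 3 libraries held 18480697 to 25172664 counts each, and the WT libraries 17915661 to 28146560. The mitochondrial share of counts was 3.01% to 4.35% and 3.18% to 5.18%. Of the 21 fibroblast markers listed, 17 reached 1 CPM in some culture, while vim, postn, postnb and tcf21 did not. The summed level of the list was 8400 to 17600 CPM in the exon 3 mutant and 8630 to 10600 CPM in WT. Collagen chains held much of it, with col1a2, col1a1a and col1a1b at 4994, 3938 and 3792 CPM in exon 3 culture 3. Exon 3 culture 3 stood apart from the rest. On the first principal component of log2 CPM over these 12 libraries, which held 36.7% of the variance, its libraries scored 75.7 and 79.4 while the others scored -46.8 to 5.00. In the exon 3 mutant, partner libraries of a culture deviated together, with correlations of 0.524, 0.714 and 0.313 across 16354 genes. The labelled partners of WT did not, with a correlation of -0.165 between F4A and F4B and of -0.319 between FMA and FMB, while F4B and FMA gave 0.423 and F9 and FMB gave 0.257. It is therefore uncertain whether the labels group the WT libraries by culture correctly, and each value given for WT F4 or FM is that of its libraries A and B summed as labelled. Counts of genes are also given without culture 3 and with WT grouped in other ways.

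Of 16354 genes tested, 39 (0.238%) passed edgeR's quasi-likelihood test at an adjusted p under 0.05. Among them 23 (0.141%) were higher and 16 (0.0978%) lower in the exon 3 mutant. All 39 had cultures that did not overlap between the genotypes, as did 13.9% of all genes tested. The 39 were chosen by the same values, so these shares cannot be set against each other. By single library 37 of the 39 were also separate, fam19a2 and an unnamed gene being the exceptions. The median log2 fold change of all genes was 0.01, and 51.5% of them lay above 0. An unadjusted p under 0.05 was reached by 2017 genes (12.3%), 7.07% of all genes on the higher and 5.26% on the lower side. Many of the changed genes were of low level, since 18 of the 39 averaged under 5 CPM in both genotypes, 14 of them higher and 4 lower in the mutant. Without culture 3, the culture that stood apart, 30 genes passed, 22 of them among the 39. The count depended more on other cultures. It was 7 without exon 3 culture 1, without WT F1 or without WT FM, 10 without WT F4, 18 without exon 3 culture 4, 24 without WT F9, 12 with F1 and F9 summed, and 6 or 5 with the WT libraries regrouped by on/off genes or by correlation. DESeq2 called 497 of the 17573 genes to which it gave an adjusted p (2.83%), 1.64% higher and 1.19% lower, and all 39 were among them.

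**Figure D1:**
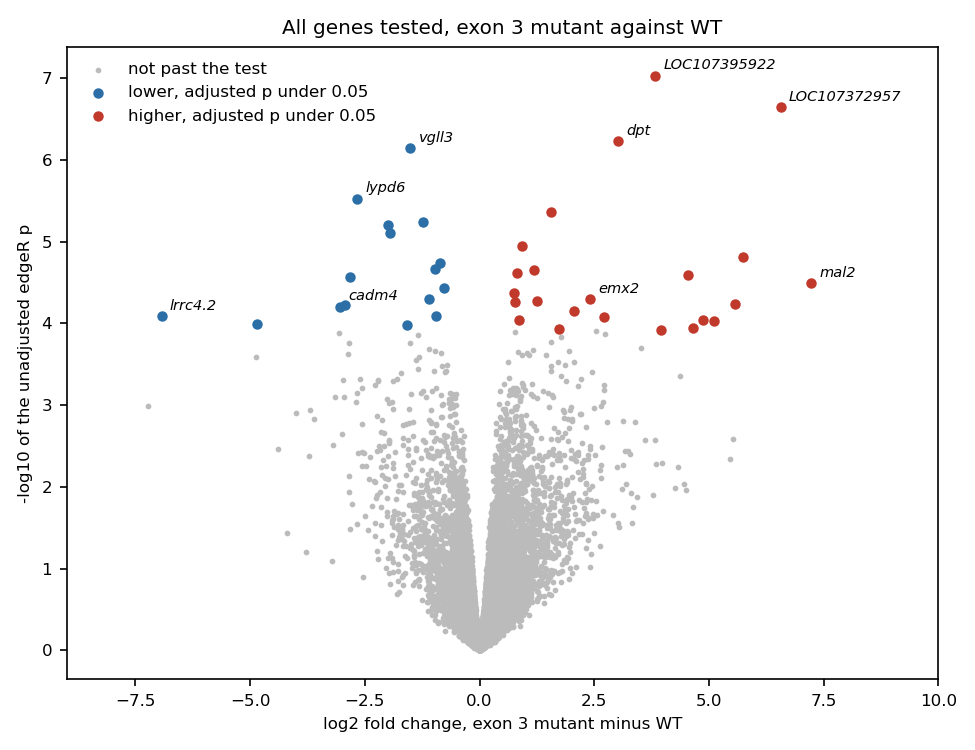
Log2 fold change of the exon 3 mutant minus WT (horizontal axis) against -log10 of the unadjusted edgeR p (vertical axis) for the 16354 genes tested. The 16 lower genes are blue and the 23 higher genes red; vgll3 lies at -1.51 and dpt at 3.01.

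Lrrc4.2, cadm4, lypd6 and adra1b, which encode proteins of the cell surface, were lower in the mutant. The steepest in proportion was lrrc4.2, a leucine-rich repeat adhesion protein of the family that binds netrin-G at synapses. It was at 0.022, 0.023 and 0 CPM in exon 3 cultures 1, 3 and 4. In WT F1, F9, F4 and FM it was at 1.48, 3.72, 1.58 and 2.38 CPM. Its WT partner libraries differed, at 0.612 and 2.54 CPM in F4A and F4B and at 3.18 and 1.36 CPM in FMA and FMB. The mutant cultures together held 2 counts of this gene and the WT cultures 301, so that it was nearly silent in 1 genotype and weakly expressed in the other. This is a ratio of 149 in favour of WT (95% Poisson interval 40.9 to 1240, counting error only), with an adjusted p of 0.0437 in edgeR's test. Cadm4, an immunoglobulin-type adhesion molecule, was at 1.64, 2.51 and 1.72 CPM in the mutant and at 18.3, 14.8, 16.2 and 15.4 CPM in WT. The single WT libraries varied far more than these sums, at 18.2 CPM in F1, 14.8 in F9, 6.18 and 26.1 in F4A and F4B, and 22.5 and 6.25 in FMA and FMB, while the mutant libraries lay between 1.51 and 2.73 CPM. The log2 fold change was -3.05 (SE 0.47, edgeR adjusted p = 0.0379), an 8.27-fold lower mean. Lypd6, a lipid-anchored surface protein that in zebrafish enhances Wnt signalling, was at 0.42, 0.45 and 0.57 CPM in the mutant and at 2.0, 3.51, 2.89 and 3.72 CPM in WT. All mutant cultures lay below the lowest WT culture, F1, although partner libraries differed here too, at 4.45 and 1.33 CPM in F4A and F4B and at 1.5 and 6.82 CPM in FMA and FMB. Its log2 fold change was -2.66 (SE 0.30, edgeR adjusted p = 0.0098). Adra1b, the alpha-1B adrenergic receptor, was at 16.4, 11.7 and 23.7 CPM in the mutant and at 58.5, 33.1, 62.3 and 51.1 CPM in WT. F9 was the WT culture nearest to the mutant. The log2 fold change was -1.57 (SE 0.26, edgeR adjusted p = 0.0471).

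A pair of lower genes encode secreted signals, both at very low levels. Fgf6, a fibroblast growth factor known in the mouse for its part in muscle regeneration, was at 0.17, 0.23 and 0.10 CPM in the mutant and at 1.26, 1.07, 1.61 and 1.31 CPM in WT, with 22 and 179 counts in all. Each WT culture exceeded every mutant culture, and the log2 fold change was -2.93 (SE 0.45, edgeR adjusted p = 0.0379). Fam19a2, which encodes a small chemokine-like protein, had 1 count in the mutant cultures and 40 in WT, where it was at 0.26, 0.50, 0.33 and 0.20 CPM. The ratio was 39.6 in favour of WT (95% Poisson interval 6.71 to 1600), with an edgeR adjusted p of 0.0471. Hs6st3, a heparan sulfate 6-O-sulfotransferase, modifies the sugar chains on which such growth factors bind. It was at 1.95, 2.84 and 2.04 CPM in the mutant and at 8.93, 10.6, 7.41 and 8.16 CPM in WT. The groups were well separated, and the log2 fold change was -1.94 (SE 0.24, edgeR adjusted p = 0.0142).

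Among the enzymes and intracellular proteins that were lower, ampd3b, an AMP deaminase, was at 2.32, 3.42 and 3.26 CPM in the mutant and at 10.3, 8.92, 15.3 and 13.3 CPM in WT. Every mutant culture was well below the lowest WT culture, F9. Its log2 fold change was -2.0 (SE 0.24, edgeR adjusted p = 0.0129). Glula, a glutamine synthetase, was the most abundant of the lower genes, at 233, 226 and 194 CPM against 364, 439, 445 and 445 CPM. Its WT culture F1 lay below the other WT cultures and above the mutant. The log2 fold change was -0.96 (SE 0.15, edgeR adjusted p = 0.0437). Gadd45g, a growth arrest and stress gene, was at 15.4, 17.6 and 17.9 CPM in the mutant and at 39.3, 48.8, 38.5 and 32.9 CPM in WT. The mutant cultures differed little from each other, and the log2 fold change was -1.23 (SE 0.15, edgeR adjusted p = 0.0129). WT partner libraries differed more, at 50.4 and 26.6 CPM in F4A and F4B. Pim3, a serine/threonine kinase that promotes cell survival, was at 10.1, 10.6 and 12.7 CPM in the mutant and at 21.7, 18.4, 24.1 and 22.2 CPM in WT. The groups did not overlap, and the log2 fold change was -0.96 (SE 0.13, edgeR adjusted p = 0.0257). Rnf19a, a RING-type ubiquitin ligase, was at 9.91, 10.4 and 9.96 CPM against 18.3, 18.8, 18.8 and 17.9 CPM. Both groups were narrow, which let a difference of -0.87 (SE 0.12) on the log2 scale pass with an edgeR adjusted p of 0.0249. Ift70, a subunit of the intraflagellar transport complex that builds cilia, was at 2.97, 2.30 and 2.76 CPM against 6.62, 5.37, 5.30 and 5.84 CPM. The mutant cultures all lay lower, and the log2 fold change was -1.11 (SE 0.17, edgeR adjusted p = 0.0374).

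**Figure D2:**
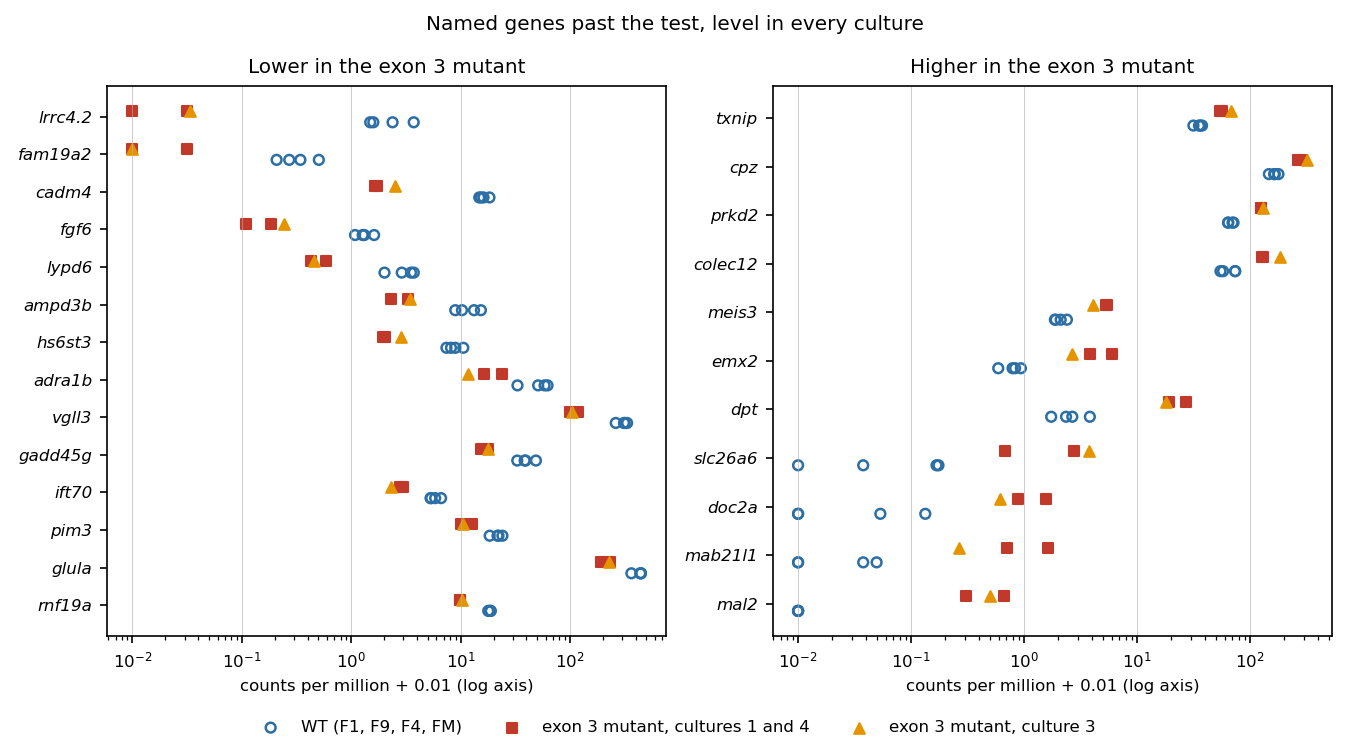
Level of the 25 named genes past the test in every culture, as CPM + 0.01 on a log axis, with lower genes on the left and higher genes on the right. Open circles are the 4 WT cultures, squares exon 3 cultures 1 and 4, and triangles exon 3 culture 3; the groups are separate for each gene, and mal2 lies at 0 CPM in all WT cultures.

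Dpt and cpz, which encode secreted proteins, and colec12, which encodes a membrane protein, were higher in the mutant. Dpt, dermatopontin, a small protein of the dermal matrix, was at 27.4, 18.1 and 19.2 CPM in exon 3 cultures 1, 3 and 4 and at 2.35, 1.74, 3.83 and 2.67 CPM in WT F1, F9, F4 and FM. The lowest mutant culture was well above the highest WT culture. The log2 fold change was 3.01 (SE 0.28, edgeR adjusted p = 0.0029), an 8.16-fold higher mean, and it passed under all 17 alternatives. Cpz, a secreted metallocarboxypeptidase with a Frizzled-like domain, was the most abundant of the higher genes, at 288, 319 and 267 CPM against 167, 148, 180 and 165 CPM. The groups did not overlap, and the log2 fold change was 0.82 (SE 0.12, edgeR adjusted p = 0.0257). Colec12, a scavenger receptor with a collagen-like stalk and a lectin domain, was at 130, 184 and 131 CPM in the mutant and at 55.1, 74.5, 58.1 and 74.1 CPM in WT. Culture 3 was the highest of the mutant cultures, but the other mutant cultures also exceeded WT. Its log2 fold change was 1.18 (SE 0.16, edgeR adjusted p = 0.0257). Another, more abundant gene also named colec12, LOC107383775, did not change with it. It was at 365, 434 and 445 CPM in the mutant and at 438, 424, 446 and 441 CPM in WT. Its log2 difference was -0.08 (SE 0.12, edgeR adjusted p = 0.817).

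Emx2, meis3 and mab21l1, known as regulators of development, were higher in the mutant, each at a low level. Emx2, a homeobox gene known in the mouse from the forebrain, the urogenital tract and the shoulder girdle, was at 3.87, 2.65 and 6.08 CPM in the mutant and at 0.78, 0.83, 0.58 and 0.93 CPM in WT. The mutant cultures spread widely but stayed above WT. The log2 fold change was 2.42 (SE 0.37, edgeR adjusted p = 0.0374), a 5.38-fold higher mean. Meis3, a TALE homeobox gene whose family binds DNA together with Pbx and Hox proteins, was at 5.40, 4.10 and 5.35 CPM in the mutant and at 1.87, 1.90, 2.11 and 2.40 CPM in WT. Both groups were narrow as summed cultures, while WT libraries FMA and FMB were at 2.83 and 1.88 CPM. The log2 fold change was 1.25 (SE 0.19, edgeR adjusted p = 0.0374). Mab21l1, known in the mouse from eye and genital development, had 3 counts in the WT cultures together and 108 in the mutant, where it was at 0.70, 0.26 and 1.62 CPM. The ratio was 36.4 (95% Poisson interval 12.1 to 179), with an edgeR adjusted p of 0.0451.

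Other higher genes act in signalling, transport and membrane traffic. Prkd2, protein kinase D2, was at 126, 132 and 127 CPM in the mutant and at 70.4, 64.3, 71.9 and 64.6 CPM in WT. Both groups were narrow as summed cultures, while the single WT libraries ranged from 58.2 CPM in FMB to 82.7 CPM in F4B. The log2 fold change was 0.92 (SE 0.12, edgeR adjusted p = 0.0186). Txnip, which binds thioredoxin and restrains glucose uptake, was at 57.4, 68.6 and 54.6 CPM against 36.6, 37.8, 35.6 and 31.7 CPM. The groups did not overlap, and the log2 fold change was 0.77 (SE 0.12, edgeR adjusted p = 0.0374). Slc26a6, an anion exchanger, was at 2.78, 3.77 and 0.67 CPM in the mutant and at 0, 0.17, 0.028 and 0.16 CPM in WT. Exon 3 culture 4 was much lower than the other mutant cultures, yet above WT. The log2 fold change was 4.64 (SE 0.78, edgeR adjusted p = 0.0499). Doc2a, a calcium sensor of vesicle release in neurons, was at 1.57, 0.61 and 0.87 CPM in the mutant and at 0.044, 0.12, 0 and 0 CPM in WT. The WT cultures held 4 counts in all and the mutant cultures 133, a ratio of 33.6 (95% Poisson interval 12.8 to 125, counting error only). The fitted log2 fold change was 4.87 (SE 0.79, edgeR adjusted p = 0.0451) and rested on few WT counts, since it was 6.35 without WT F9. Mal2, a membrane proteolipid of transcytosis in polarised epithelial cells, had no count in any WT culture and 63 counts in the mutant, at 0.66, 0.49 and 0.30 CPM. Against a floor of 3 counts over the WT cultures it was at least 21.2-fold higher (edgeR adjusted p = 0.0291).

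The single-gene calls varied with the setting. In each of the 17 alternatives 4 of the 39 genes passed: vgll3, dpt and a pair without a name, LOC107395922 and LOC107372957. A further 2, ampd3b and the unnamed LOC107385584, passed in 15. Lypd6 passed in 14, gadd45g in 13, hs6st3 in 11, and pim3, prkd2 and colec12 in 9 each. Most named genes passed in 8 of the 17 or fewer: rnf19a and mal2 in 8, lrrc4.2, adra1b, cpz, meis3, emx2 and doc2a in 7, cadm4, fgf6, ift70, txnip and mab21l1 in 6, glula in 5, and fam19a2 and slc26a6 in 4. The lowest number for any of the 39 was 3, for an unnamed gene. A setting whose filter removed a gene, so that it was not tested, counts here as not passed. This was so for mal2, mab21l1 and fam19a2 with the filter at 1 CPM, and for fam19a2 in further settings. In edgeR's fits the adjusted p of a lost call stayed between the threshold and 0.215, and no call changed its direction under any alternative.

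The 14 genes past the test without a gene name, 12 higher and 2 lower, include the gene with the smallest p of all. LOC107395922 was at 2.65, 3.94 and 3.73 CPM in the mutant and at 0.22, 0.21, 0.31 and 0.22 CPM in WT. Its log2 fold change was 3.83 (SE 0.30, edgeR adjusted p = 0.0015). LOC107372957 was at 1.90, 1.83 and 1.52 CPM in the mutant cultures and had 2 counts in the WT cultures against 226, a ratio of 114 (95% Poisson interval 31.3 to 949, edgeR adjusted p = 0.0018). It was the single gene of all in the file with at least 1 CPM in every exon 3 library, 1.41 to 2.05 CPM, and at most 0.15 CPM in every WT library, 0 to 0.056 CPM. This was not particular to the exon 3 mutant, since the exon 1 libraries held LOC107372957 at 0.62 to 2.01 CPM. On the lower side LOC107383917 was at 8.75, 5.18 and 18.1 CPM against 90.3, 57.6, 78.6 and 74.0 CPM, which differed by -2.81 on the log2 scale (SE 0.40, edgeR adjusted p = 0.0257) and by -3.43 without exon 3 culture 4. The fitted log2 fold changes of the other unnamed higher genes started at 0.75.

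The Tead genes, whose products Vgll3 binds, and the other Vgll and Yap genes tested did not pass. Of 12 Vgll, Tead and Yap genes listed, 8 were tested, and vgll3 was the 1 gene among them past the test. Tead1a, a TEAD factor, was at 21.1, 19.9 and 19.4 CPM in the mutant and at 24.4, 21.2, 27.1 and 24 CPM in WT, a log2 difference of -0.26 (SE 0.12, edgeR adjusted p = 0.393). Its cultures did not overlap, which 6.87% of all genes showed in that direction. The log2 difference was -0.07 (SE 0.13) for tead1, -0.23 (SE 0.13) for tead3, 0.04 (SE 0.12) for tead3a and 0.13 (SE 0.12) for yap1. It was 0.01 (SE 0.13) for vgll4 and 0.15 (SE 0.22) for vgll4a. Vgll1, vgll2, vgll2b and vgll4l were below 0.1 CPM in every culture and were not tested.

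The list of Hippo kinases, scaffolds and regulators covers a pathway whose active kinases keep Yap in the cytoplasm, and it also holds members that restrain those kinases. It had 28 of 38 tested members above 0 and 10 below, with a median log2 difference of 0.15 against 0.01 for all genes. None passed in edgeR, 6 reached an unadjusted p under 0.05, all higher, against 7.07% of all genes on that side, and DESeq2 called 1, against 2.83% of all genes. The 4 with the smallest p were the kinase taok1b at 0.46 (SE 0.12), the kinase mink1 at 0.50 (SE 0.15), the LIM protein ajuba, which restrains the Lats kinases, at 0.36 (SE 0.11) and the phosphatase ptpn14 at 0.40 (SE 0.14), with edgeR adjusted p-values from 0.163 to 0.290. All 4 were higher in every mutant culture than in every WT culture, a pattern that 6.99% of all genes showed in that direction. The 4 were picked by smallest p from the same values, so they cannot be set against that share. Of 33 targets of Yap and TEAD known from other cells, ajuba and ptpn14 among them, 16 were above 0 and 17 below, the median was -0.0015, and none passed in edgeR. An unadjusted p under 0.05 was reached by 5 on the higher and 3 on the lower side, and DESeq2 called 2 and 2, against 7.07% and 5.26% and, by DESeq2, 1.64% and 1.19% of all genes. Gadd45b at -0.59 (SE 0.13) and the kinase nuak2 at -1.53 (SE 0.34) were lowest in p, with edgeR adjusted p-values of 0.108 and 0.112. Nuak2 was at 16.6, 8.34 and 14.1 CPM in the mutant and at 30.5, 54.4, 27.3 and 38.2 CPM in WT.

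The matrix lists held 1 gene past the test. In the list of small leucine-rich and dermal matrix proteins it was dpt, 1 of 38 members, against 0.238% of all genes. Of these members 20 lay above 0 and 18 below. The list was chosen with earlier results of these data known, so the 1 call cannot be set against the 0.238%. Elna, an elastin, was at 4.24, 0.73 and 2.04 CPM in the mutant and at 29.1, 138, 38.7 and 70.4 CPM in WT, a log2 difference of -4.88 (SE 0.90) that did not pass (edgeR adjusted p = 0.0684). Every mutant culture was several-fold below the lowest WT culture. Podn, a leucine-rich proteoglycan, differed by 2.46 (SE 0.48, edgeR adjusted p = 0.0857), and thbs2, an anti-angiogenic matrix glycoprotein, by -2.18 (SE 0.57, edgeR adjusted p = 0.163). Neither passed. Of 30 collagens, 24 were above 0 with a median of 0.41, and none passed in edgeR. At an unadjusted p under 0.05 there were 5 higher and 2 lower collagens, against 7.07% and 5.26% of all genes, and DESeq2 called 4 and 2, against 1.64% and 1.19%. Relative to the WT mean the median was 0.13 in culture 1, 0.99 in culture 3 and -0.0048 in culture 4. Without culture 3 it was -0.07, with 14 of 30 above 0. Col6a2 and col6a1, chains of collagen VI, were higher in every mutant culture than in every WT culture, with log2 differences of 1.07 (SE 0.20, edgeR adjusted p = 0.0673) and 0.94 (SE 0.23, edgeR adjusted p = 0.137). Col6a2 was at 568, 919 and 520 CPM in the mutant and at 279, 332, 326 and 337 CPM in WT. Col23a1a, a transmembrane collagen, was at 0.90 (SE 0.22, edgeR adjusted p = 0.130), also with separate groups. Col8a1, a short-chain collagen, lay the other way, at -1.91 (SE 0.42, edgeR adjusted p = 0.106).

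Matrix proteases and their inhibitors had 25 of 40 tested members above 0, a median of 0.25, and none past edgeR's test, while DESeq2 called 5, all higher, against 1.64% of all genes. An unadjusted p under 0.05 was reached by 14 members on the higher side and 2 on the lower side, against 7.07% and 5.26% of all genes. The list's median was similar in the mutant cultures, 0.26, 0.25 and 0.23 relative to the WT mean. Mmp14b, a membrane-anchored collagenase, was at 144, 115 and 104 CPM in the mutant and at 72.1, 88.1, 72.1 and 85.3 CPM in WT (log2 difference 0.61, SE 0.13, edgeR adjusted p = 0.107). Htra3, a secreted serine protease, followed at 1.11 (SE 0.28, edgeR adjusted p = 0.153), with groups that overlapped. Mmp2, a gelatinase that Mmp14 activates, was at 1840, 2410 and 1788 CPM in the mutant and at 1326, 1237, 1375 and 1315 CPM in WT (log2 difference 0.62, SE 0.16, edgeR adjusted p = 0.163). None of these passed, although the groups of mmp14b and mmp2 were separate. Among metallocarboxypeptidases, a list chosen with earlier results of these data known, cpz was the 1 of 11 that passed. That count cannot be set against the 0.238% of all genes. Cpe, a prohormone-processing enzyme, at 1.12 (SE 0.24, edgeR adjusted p = 0.0995) did not pass. Neither did aebp1, a collagen-binding relative, at 1.61 (SE 0.39, edgeR adjusted p = 0.137). Cpxm1a at -1.28 and cpq at -0.54 lay the other way with separate groups and did not pass (edgeR adjusted p = 0.175 and 0.2285). Scara3, a scavenger receptor of the same list as colec12, was at 2232, 2636 and 1946 CPM in the mutant and at 1121, 1586, 1109 and 1347 CPM in WT, and did not pass either (edgeR adjusted p = 0.111).

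The adhesion list held 42 tested members, of which cadm4 was the 1 that passed, against 0.238% of all genes. This list was chosen with earlier results of these data known, so its 1 call cannot be set against that share. Its median was 0.22, which was 0.02 without culture 3. Members at an unadjusted edgeR p under 0.05 lay on both sides, cdh11 and mcam among the higher and cdh2 and jam2 among the lower. Cadm2, a relative of cadm4, was at 1.57, 1.24 and 1.32 CPM in the mutant and at 0.44, 0.37, 0.31 and 0.32 CPM in WT. That difference ran in the other direction, 1.96 (SE 0.36) on the log2 scale, and did not pass (edgeR adjusted p = 0.0673). Cadm2a, another relative, was at 9.05, 53.2 and 18 CPM in the mutant and at 3.92, 2.60, 7.08 and 6.99 CPM in WT, all mutant cultures above WT and culture 3 the highest (log2 difference 2.36, SE 0.65, edgeR adjusted p = 0.176). Cadm1b was at 0.39, 33.2 and 2.66 CPM in the mutant and at 0.35, 0.66, 1.33 and 0.93 CPM in WT, so its fitted difference of 3.84 (SE 1.09, edgeR adjusted p = 0.186) came with high values in culture 3. Heparan sulfate enzymes had 1 of 24 members past the test, hs6st3, against 0.238% of all genes, and a median of -0.06. The same limit holds for the 1 call among these heparan sulfate enzymes. The proteoglycan cores that carry such chains had 13 of 18 members above 0 and a median of 0.38, which was 0.12 without culture 3. None passed in edgeR, 6 reached an unadjusted p under 0.05, all higher, against 7.07% of all genes, and DESeq2 called 3, against 2.83%. The glypican gpc5 was at 65.2, 94.5 and 65.0 CPM in the mutant and at 12.8, 14.7, 30.9 and 39.3 CPM in WT, and did not pass (log2 difference 1.61, SE 0.34, edgeR adjusted p = 0.0999).

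In the growth factor lists no gene passed, since fgf6 is not a member of the list of FGF and ERK signalling. The 30 tested members of that list had a median of 0.04. Of them 4 higher and 2 lower reached an unadjusted p under 0.05, against 7.07% and 5.26% of all genes. DESeq2 called 1 in each direction, against 1.64% and 1.19% of all genes. Fgf18a, a growth factor of bone and cartilage, was at 3.87, 1.97 and 2.86 CPM in the mutant and at 9.63, 6.98, 5.55 and 8.26 CPM in WT (log2 difference -1.39, SE 0.26, edgeR adjusted p = 0.0726). Fgfr3, a receptor, lay the other way at 0.89 (SE 0.19, edgeR adjusted p = 0.101). Of 51 genes of TGF-beta and BMP signalling, 34 were above 0 and the median was 0.18. None passed in edgeR, 12 higher and 3 lower members reached an unadjusted p under 0.05, against 7.07% and 5.26% of all genes, and DESeq2 called 5 and 2, against 1.64% and 1.19%. Tgfb1a, the ligand TGF-beta 1, was at 20.4, 21.1 and 31 CPM in the mutant and at 42.8, 45.3, 40.2 and 43.1 CPM in WT, and did not pass (log2 difference -0.83, SE 0.16, edgeR adjusted p = 0.0771). The BMP antagonist chrd at 0.79 (SE 0.19) was higher in every mutant culture than in every WT culture, as was smad9 at 0.44 (SE 0.11), and neither passed (edgeR adjusted p = 0.140 and 0.153). Of 40 genes of the growth hormone, IGF and insulin axis, 27 were above 0 with a median of 0.17, which was 0.02 without culture 3. None passed in edgeR, and 8 higher and 5 lower members reached an unadjusted p under 0.05, against the same 7.07% and 5.26%. DESeq2 called 1, which was lower, against 1.19% of all genes on that side. Igfbp5b, an IGF-binding protein, was at 39.0, 35.7 and 37.2 CPM in the mutant and at 133, 50.1, 157 and 115 CPM in WT. The mutant cultures were alike and WT F9 lay nearest to them (log2 difference -1.61, SE 0.38, edgeR adjusted p = 0.129). The cytokine feedback inhibitors socs3 at -0.60 (SE 0.19) and cish at -0.52 (SE 0.17) did not pass (edgeR adjusted p = 0.226 and 0.267).

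Genes of inflammation and NF-kappaB lay mostly on the lower side. Of 30 tested members, 24 were below 0, the median was -0.40, and 12 reached an unadjusted p under 0.05, all on the lower side, where 5.26% of all genes did. None passed in edgeR, and DESeq2 called 5, against 2.83% of all genes. The median relative to the WT mean was -0.24, -0.56 and -0.46 in cultures 1, 3 and 4, and the list's median without culture 3 was -0.37. Ptx3, a secreted pattern-recognition pentraxin, was at 14.4, 8.30 and 10.6 CPM in the mutant and at 63.0, 70.6, 29.9 and 51.2 CPM in WT (log2 difference -2.27, SE 0.46, edgeR adjusted p = 0.0995). Bcl3, a nuclear IkappaB protein, was at -0.63 (SE 0.14), ptgs2, the inducible cyclooxygenase, at -1.05 (SE 0.24), and the subunit nfkb1 at -0.41 (SE 0.11), with edgeR adjusted p-values of 0.111 to 0.173. The summed level of macrophage and leukocyte markers was 9.51 to 11.9 CPM in the mutant and 5.08 to 11.9 CPM in WT, and 13 of the 19 markers were below 1 CPM in every culture. In bulk RNA, fewer cells of a type and less RNA per cell cannot be told apart.

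Lists of mitochondrial, ribosomal and cell cycle genes held no gene past edgeR's test or called by DESeq2. An unadjusted p under 0.05 was reached by 8 complex I subunits, all lower, by 8 lower and 1 higher subunit of complexes II to V, by 1 mitosis gene, by 3 replication genes and by no ribosomal protein, against 7.07% of all genes on the higher and 5.26% on the lower side. Complex I subunits lay below 0 in 36 of 37 cases, with a median of -0.28, and subunits of complexes II to V in 34 of 36, with a median of -0.31. Both medians were more negative in culture 3, at -0.62 and -0.68 relative to the WT mean, than in cultures 1 and 4, at -0.12 to -0.19, and without culture 3 they were -0.14 and -0.19. Cytosolic ribosomal proteins were below 0 in 76 of 76 cases with a median of -0.17, yet relative to WT they were at 0.19, -0.84 and -0.04 in cultures 1, 3 and 4. Without culture 3 their median was 0.07 and 70 of 76 were above 0, so that the sign of this list was set by 1 culture. Mitosis genes were above 0 in 48 of 55 cases with a median of 0.19, which was 0.40 with 55 of 55 above 0 without culture 3 but -0.02 without culture 4. DNA replication genes were below 0 in 50 of 55 cases with a median of -0.19, which was -0.08 without culture 3.

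**Figure D3:**
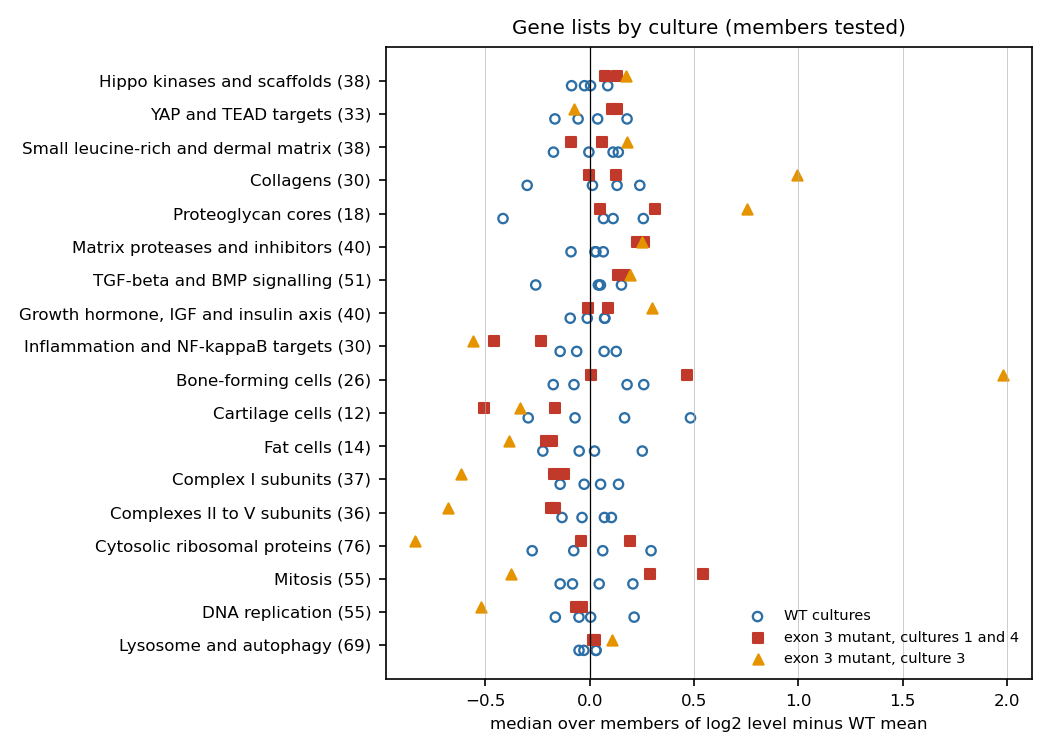
Median over the tested members of each list (number in brackets) of the log2 level minus the WT mean, for each culture. Open circles are WT cultures, squares exon 3 cultures 1 and 4, and triangles exon 3 culture 3, which lies at 1.98 for the bone list and at -0.84 for ribosomal proteins.

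Exon 3 culture 3 carried high levels of genes of bone-forming cells. Of the genes at least 8-fold from both other exon 3 cultures, with at least 5 CPM in the higher culture or cultures, 35 were higher and 5 lower in culture 3. Culture 1 had 7 such genes, all lower, culture 4 had 1, and the 4 WT cultures had 1 in all by the same rule. The WT count is not a like comparison, since WT has more cultures to differ from. Its cultures F4 and FM are also sums of libraries that did not deviate together. No test applies to this choice. Col10a1a, a collagen of hypertrophic cartilage and of bone in fish, reached 1949 CPM in culture 3. Its level was 13.2 CPM in culture 1 and 64.6 CPM in culture 4, and WT ranged from 6.32 to 21.2 CPM. Other named genes of the group were phex, a protease of phosphate control, at 29.9 CPM against 1.55 and 1.79, and panx3, a channel of bone cells, at 14.3 CPM against 0.022 and 0.77. Angptl7, a secreted angiopoietin-like protein, was at 119 CPM against 0.37 and 3.59. The next in order were c1qtnf6a, frem3, entpd5, plp1a, apbb1ip and bcar3. Sp7, the bone master regulator known as osterix, was at 51.7 CPM against 0.52 and 4.98, and WT ranged from 0.39 to 1.98 CPM. The 4 named genes lower in culture 3 were cfd, a complement protease, at 1.92 CPM against 40.0 and 21.4, fst, the activin antagonist follistatin, at 4.2 CPM against 58.1 and 39.2, stx2b and aldoab.

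**Figure D4:**
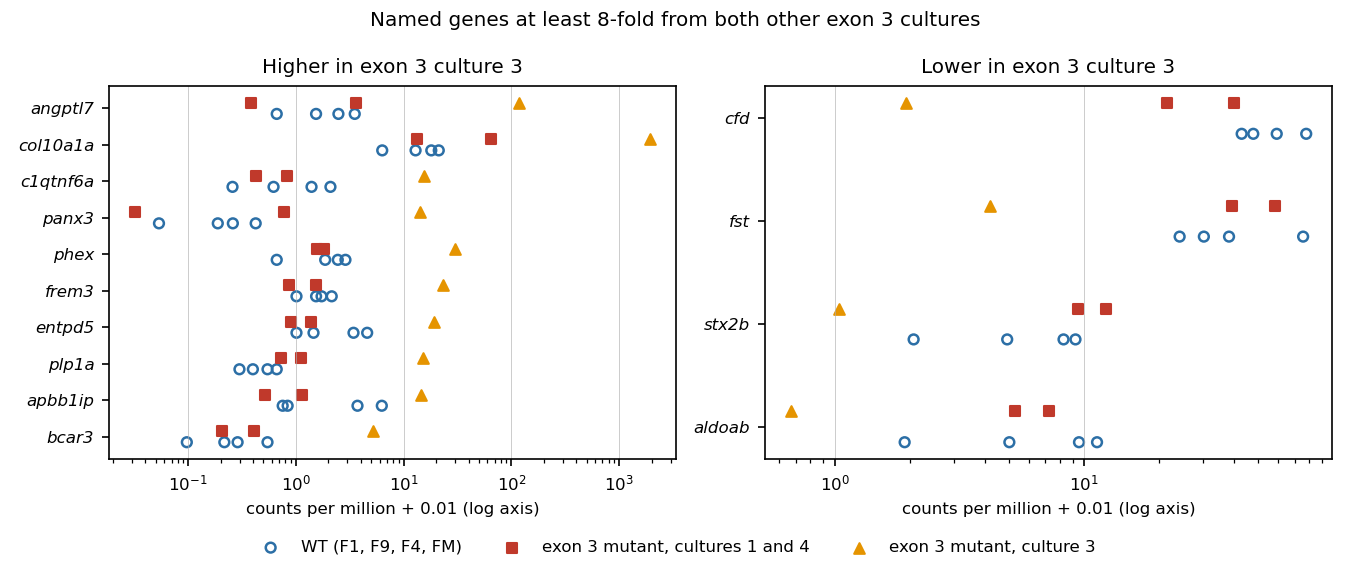
Level in CPM + 0.01 (log axis) of the named genes at least 8-fold higher (left, the 10 with the largest ratio) or lower (right, 4 genes) in exon 3 culture 3 than in both other exon 3 cultures. Triangles are culture 3, squares cultures 1 and 4 and open circles WT; col10a1a reached 1949 CPM in culture 3.

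The summed level of markers of bone-forming cells was 3390, 12400 and 4730 CPM in exon 3 cultures 1, 3 and 4 and 1820 to 3500 CPM in WT. Without spp1, the sums were 2040, 6250 and 2460 CPM against 1550 to 1930 CPM, every mutant culture above WT. Of 26 tested members 23 were above 0. None passed in edgeR, 14 higher and 1 lower reached an unadjusted p under 0.05, against 7.07% and 5.26% of all genes, and DESeq2 called 4, all higher, against 1.64%. The list had a median of 0.94 in all and of 0.28 without culture 3, where 18 were above 0. Alpl, the alkaline phosphatase of mineralising cells, was at 273, 1289 and 367 CPM in the mutant and at 113, 144, 182 and 208 CPM in WT, so all mutant cultures exceeded WT (edgeR adjusted p = 0.169). Cartilage markers summed to 112, 2190 and 173 CPM in the mutant and to 78.0 to 144 CPM in WT, and 13 of 25 were below 1 CPM everywhere. Most of the cartilage sum of culture 3 was col10a1a, and without it the sums were 98.8 to 242 CPM against 71.7 to 124 CPM. Most of the remaining mutant sums was runx3, at 80.2, 192 and 89.0 CPM. The 12 tested members had a median log2 difference of -0.10. Mia (-2.25, SE 0.52), ucma (-2.39, SE 0.66), comp (-1.43, SE 0.54) and chad (-1.76, SE 0.67) were lower in every mutant culture than in every WT culture. Such a separation on that side was shown by 6.87% of all genes. The edgeR adjusted p-values of mia, ucma, comp and chad were 0.123 to 0.323. Their levels were low, at 0.12 to 0.33 CPM against 0.78 to 2.22 CPM for mia and at 0.066 to 0.16 CPM against 0.33 to 1.07 CPM for ucma. Comp was at 0.12 to 0.46 CPM against 0.53 to 1.115 CPM, and chad at 2.11 to 2.34 CPM against 2.56 to 11.57 CPM. Ihh (1.56, SE 0.30) and runx3 (0.93, SE 0.27) were higher in every mutant culture than in every WT culture, which 6.99% of all genes were. None of the list passed in edgeR. Among the markers of other cells, nerve and glia summed to 7.74 to 29.0 CPM against 30.0 to 59.0 CPM, a difference that rested on 1 gene, ngfr: without it the sums were 4.29 to 26.9 CPM against 2.53 to 7.27 CPM. Ngfr, a neurotrophin receptor, was at 3.46, 2.11 and 9.98 CPM in the mutant and at 27.4, 51.7, 31.4 and 38.9 CPM in WT, and did not pass (log2 difference -2.85, SE 0.50, edgeR adjusted p = 0.0601). Endothelial markers summed to 161 to 223 CPM against 302 to 447 CPM, which likewise rested on kdrl, since the other members summed to 69.6 to 80.0 CPM against 59.0 to 73.7 CPM. Kdrl, a VEGF receptor, was at 145, 80.5 and 148 CPM against 382, 243, 292 and 255 CPM (log2 difference -1.23, SE 0.26, edgeR adjusted p = 0.0995). Epithelial markers summed to 8000 to 12900 CPM against 6680 to 7300 CPM, most of it from krt8, and 12 of 24 were below 1 CPM everywhere. Without krt8 the sums were still separate, at 628 to 917 CPM against 505 to 600 CPM. Pigment cell markers summed to 29.2 to 151 CPM against 27.0 to 34.6 CPM, and to 23.1 to 38.2 CPM against 19.1 to 22.7 CPM without dct, a melanin enzyme that was at 113 CPM in culture 3. Ltk, a receptor kinase of iridophores in zebrafish, was at 6.56, 13.9 and 12.8 CPM in the mutant and at 1.31, 0.70, 2.86 and 2.58 CPM in WT, and just missed the threshold (log2 difference 2.54, SE 0.43, edgeR adjusted p = 0.0507). Pnp4a, a purine enzyme that also marks iridophores in zebrafish, lay the other way, at 0.33, 0.75 and 0.35 CPM in the mutant and at 1.61, 4.09, 3.19 and 4.99 CPM in WT, and did not pass (log2 difference -2.87, SE 0.53, edgeR adjusted p = 0.0673). The part of these cell types in the gene changes was not tested.

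A direct test between the exon 3 and the exon 1 mutant, in the same fit, found 2 genes (0.0122%), and 1387 genes (8.48%) at an unadjusted p under 0.05. Leaving out exon 1 culture 3 or 4 gave 1 gene, leaving out exon 3 culture 3 gave 4, and leaving out exon 1 culture 6 gave 8. None of the 39 genes passed the test, and 19 of them had an unadjusted p under 0.05. The 39 genes were chosen by values of the same exon 3 cultures, so their share cannot be set against the 8.48% of all genes. Vgll3 was at 266, 206 and 262 CPM in exon 1 cultures 3, 4 and 6, all above the exon 3 cultures, a log2 difference of -1.19 (edgeR adjusted p = 0.0518). Meis3 was at 2.09, 2.43 and 1.90 CPM and adra1b at 51.8, 47.1 and 52.7 CPM in the exon 1 mutant, levels within or near the WT range, but their differences from the exon 3 mutant did not pass (edgeR adjusted p = 0.164 for each). Cadm4 spread over 17.6, 7.10 and 3.49 CPM in the exon 1 cultures. The genes that passed were strbp, an RNA-binding protein of the germ line, and gpat2, a glycerol-phosphate acyltransferase of the testis in mammals. Strbp was at 0.31, 0.68 and 0.37 CPM in the exon 3 mutant, which overlaps the WT range of 0.21 to 0.52 CPM, and at 12.2, 13.1 and 13.8 CPM in the exon 1 mutant. Gpat2 was at 7.76, 3.42 and 6.00 CPM in the exon 3 mutant, at 2.30 to 4.18 CPM in WT and at 0.20, 0.20 and 0.055 CPM in the exon 1 mutant. The WT cultures are shared by the comparisons of the 2 mutants with WT. The 16 genes past the test in both comparisons are 41.0% of the 39 genes and 61.5% of the 26 genes (0.159%) found for exon 1. The named ones are dpt, cpz, colec12, doc2a, mab21l1, mal2, lypd6 and rnf19a, each changed in the same direction in both mutants. LOC107395922 and LOC107372957 are among the unnamed ones. Dpt was at 21.8, 24.6 and 13.7 CPM in exon 1 cultures 3, 4 and 6.

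By the RefSeq gene table, 30 of the 39 genes lie on a named chromosome. Chromosome 5 held 9 of these 30 (30.0%), although it holds 7.16% of the 12472 tested genes placed on a chromosome. Among the 9 are cadm4, ift70, rnf19a, doc2a and mal2, and the share of tested genes that passed was 1.01% there against 0.241% of all placed genes. At an unadjusted p under 0.05 the share on chromosome 5 was 12.2%, the same as for all placed genes. Those of the 9 that also passed for exon 1, against the same WT cultures, include rnf19a, doc2a, mal2, LOC107395922 and LOC107372957. Cadm4 and ift70 did not pass there (edgeR adjusted p = 0.678 and 0.1275). Part of the count on chromosome 5 was thus not particular to the exon 3 mutant. No test applies, since the chromosome was singled out after its count was seen. Vgll3 itself lies on chromosome 14, which held 2 genes past the test, vgll3 and lypd6. Of its neighbours within 10 genes on either side, none that was tested passed: the log2 difference was -0.05 for ube2f, 0.20 for znf654, 0.18 for epha3 and 0.41 for adarb1b.

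**Figure D5:**
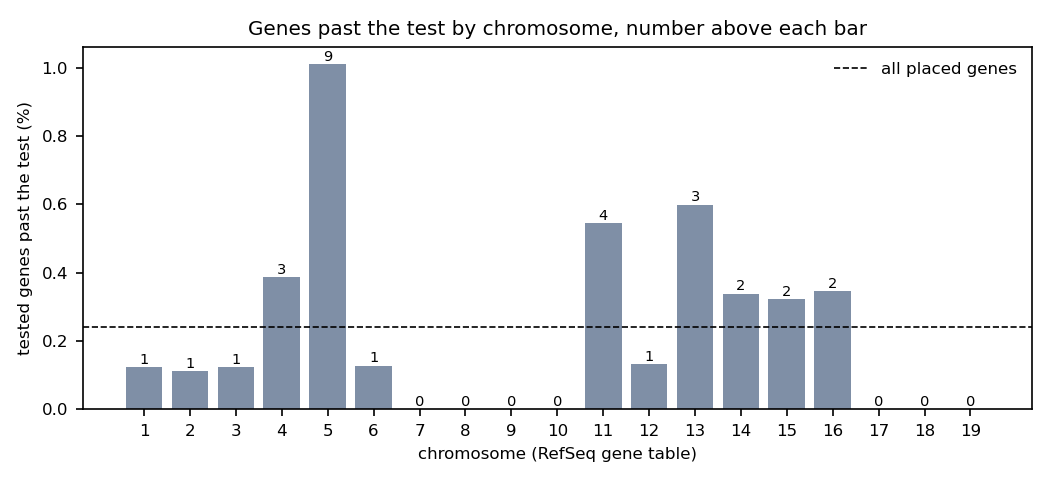
Percentage of tested genes that passed the test on each chromosome of the RefSeq gene table, with the number of genes above each bar and the value for all placed genes, 0.241%, as a dashed line. Chromosome 5 has 9 genes (1.01%) and chromosome 14, where vgll3 lies, has 2.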

How the data were processed

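Polyadenylated RNA of cultured killifish tail fibroblasts was sequenced as single-end reads, per the labels' protocols. The authors deposited a table of raw counts for 25099 genes in 18 libraries. The tools that the submitters' processing notes list, without a role, are STAR 2.7.6a, cutadapt 3.4, Trim Galore 0.6.4, FastQC 0.11.8 and edgeR 3.32.1. The build, the annotation, strand use and the handling of reads that match several genes were not given in the sources used here, so counts of paralogs (such as glula, ampd3b and the cadm genes) and of overlapping genes are uncertain. No coordinates are given. Names of LOC identifiers and chromosomes come from RefSeq (assembly NfurGRZ-RIMD1), which matched 17433 identifiers and names 4620 of the 14280 LOC identifiers.

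Libraries A and B, technical replicates per the series design, were summed per culture, and F1 and F9 were kept separate. All 10 cultures of the 3 genotypes were fitted together with edgeR 4.0.16 (limma 3.58.1, R 4.3.3): filterByExpr by genotype, TMM scaling, the robust quasi-likelihood test and Benjamini-Hochberg adjustment over 16354 genes at 0.05. SE is the absolute log2 fold change over the square root of F. CPM were computed from the counts with TMM-scaled totals. Ratios with intervals are given where a group held 1 to 5 counts, and intervals and floors (3 counts over a group) cover counting error only. Marker sums without their most abundant member were added after seeing the data. The fit was tested on simulated data. DESeq2 1.42.0, other filters, scalings and groupings, and each culture left out were alternatives. Every gene past the test with a name is reported, other genes past it as counts with at most 2 identifiers a direction (LOC107385584 was named after its values were seen), and list members that did not pass by smallest p. Sp7, alpl and ltk were among these, and some members are not reported here. The members and lists were chosen with earlier results of these data known, and lists have no test.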

Additional observations from a re-analysis of the deposited data

Results flagged for a closer look

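Glula in WT culture F1, at 364 CPM, was far from the other WT cultures, which lay at 439 to 445 CPM. F4 and FM are sums of libraries that differed more, at 438 and 452 CPM in F4A and F4B and 423 and 485 CPM in FMA and FMB. The single library of F1 was the lowest of the WT libraries, at 362 CPM. Among groups of 4 cultures chance flags about 1 in 20. The value is still above the highest exon 3 culture, at 233 CPM.

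The mutants differed by the direct test in 2 genes. Strbp differed by -4.83 on the log2 scale, exon 3 minus exon 1 (SE 0.35, edgeR adjusted p = 0.00066), and every exon 1 culture was above every exon 3 and WT culture. Gpat2 differed by 5.18 (SE 0.50, edgeR adjusted p = 0.0065), and every exon 1 culture was below every exon 3 and WT culture.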

How the results depend on the processing

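The 39 genes (23 higher, 16 lower) became 497 (288, 209) with DESeq2 and 567 (306, 261) with the 18 libraries as separate samples, which treats technical replicates as independent. They became 17 (9, 8) with the exon 3 mutant and WT alone in the fit, 12 (6, 6) with WT F1 and F9 summed, and 6 (4, 2) and 5 (3, 2) with the WT libraries grouped by on/off genes or by correlation. Both groupings rest on the counts themselves. The one by correlation was chosen after seeing the data and was not among the planned settings. Leaving out 1 culture gave 7 to 30 genes, 4 to 21 higher and 2 to 11 lower. Other scalings gave 36, no filter 44 and a filter at 1 CPM 31. The test between the mutants, with 2 genes, gave 177 with DESeq2, 278 with separate libraries and 1 to 8 without 1 culture. Named genes other than vgll3 kept their direction in all 396 values under alternatives and lost the call in 198. Of 272 values of 16 list medians 10 had another sign: 7 for the Yap and TEAD targets, collagens and ribosomal proteins without exon 3 culture 3, and mitosis without culture 4. The cause of the changes in count was not tested. No paired analysis was possible because the exon 3 mutant and WT share no sample number in their labels. Genes under 1 CPM rest on few counts per culture.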

Other observations

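Further gene groups held no gene past edgeR's test or a single one. Of 28 genes of fin position and patterning, 19 were above 0, the median log2 difference was 0.13 (0.15 without exon 3 culture 3), 5 higher and 1 lower reached an unadjusted p under 0.05, against 7.07% and 5.26% of all genes, and DESeq2 called 2, against 2.83%. Tbx2, a T-box factor of limb patterning, was at 6.08, 5.13 and 6.22 CPM in exon 3 cultures 1, 3 and 4 and at 1.39, 2.44, 3.39 and 3.29 CPM in WT F1, F9, F4 and FM. Gli1, a target and effector of hedgehog signalling, was at 37.0, 44.2 and 46.0 CPM in the mutant and at 23.3, 30.5, 31 and 34.1 CPM in WT. The groups of both genes were separate, but neither passed (log2 difference 1.13, SE 0.29, and 0.51, SE 0.14; edgeR adjusted p = 0.152 and 0.184).

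Among 49 Wnt genes none passed in edgeR, and 7 higher and 2 lower reached an unadjusted p under 0.05, against the same shares of all genes. DESeq2 called 3, against 2.83% of all genes. The Wnt genes with the smallest p in edgeR were the receptor fzd10 at 0.76 (SE 0.19), the secreted inhibitor notum at 1.1 (SE 0.29) and the feedback inhibitor axin2 at 0.57 (SE 0.16). Their edgeR adjusted p-values were 0.151 to 0.173. Notum was at 399, 662 and 599 CPM in the mutant and at 213, 186, 320 and 311 CPM in WT. The 14 tested genes of fat cells had a median of -0.05. Of them 1 higher and 5 lower reached an unadjusted p under 0.05, against 7.07% and 5.26% of all genes. None passed in edgeR, and DESeq2 called 2, against 2.83% of all genes. Pparg, the regulator of fat cell differentiation, was at 2.14, 0.70 and 1.92 CPM in the mutant and at 5.36, 14.5, 4.13 and 5.88 CPM in WT. Its WT culture F9 was the highest, and the log2 difference of -2.23 (SE 0.60) did not pass (edgeR adjusted p = 0.17). In purine metabolism, ampd3b was the 1 of 30 that passed, against 0.238% of all genes. Its paralog ampd3 was at 1.29, 0.87 and 1.17 CPM in the mutant and at 2.44, 3.22, 4.69 and 4.18 CPM in WT. That difference, -1.71 (SE 0.34), had the same sign and did not pass (edgeR adjusted p = 0.0866). Ift70 was the 1 of 49 cilium genes that passed, against 0.238% of all genes, and the median of that list was 0.05. The purine and cilium lists were chosen with earlier results of these data known, so neither call can be set against that share. Mgp, the matrix Gla protein that restrains mineral deposition, was at 242, 85.7 and 160 CPM in the mutant and at 65.3, 43.5, 59.7 and 51.6 CPM in WT, separate but not past the test (log2 difference 1.56, SE 0.30, edgeR adjusted p = 0.0771).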
